A study of Mus musculus with 2 samples.

Results

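Myc, Mycn, Max, Mga, Lin28a, Lin28b and Trim71 are regulators of growth and of RNA in embryonic stem cells (ESCs), and the open chromatin at these genes is described here in WT and Uhrf1 KO cells. The 7 genes were chosen by name and role out of 22380 protein-coding genes of the annotation, with earlier results of these data known. For each of them, every ATAC-seq peak whose middle lay in the gene or within 50 kb on either side was taken and placed by its distance to the transcription start site (TSS). This gave 90 of 71914 WT peaks and 65 of 61640 KO peaks. The libraries came from undifferentiated mouse E14 ESCs, an established line, either WT or KO for Uhrf1, a protein that recruits the maintenance DNA methyltransferase to newly copied DNA. In ATAC-seq, the Tn5 transposase cuts DNA that is not covered by nucleosomes, and a peak is a position where such cuts pile up. There was 1 library for each genotype, so that no difference between the genotypes has a replicate error and none was tested. The deposited lists give positions and no read numbers, so the depth behind a peak is unknown, and the lack of a listed peak does not show that chromatin was closed.

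Myc and Mycn are transcription factors that bind the E-box sequence as dimers with Max, drive growth and ribosome production, and help ESCs to self-renew. Mga also pairs with Max, and in ESCs this pair takes part in a repressive Polycomb complex that holds back germ cell genes. Lin28a and Lin28b are RNA-binding proteins that block the maturation of let-7 microRNAs, and Trim71, itself a target of let-7, is an RNA-binding ubiquitin ligase of stem cells.

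All 7 genes had a peak within 2 kb of an annotated TSS in both libraries, as did 63.6% of all protein-coding genes in WT and 58.7% in Uhrf1 KO. Within 1 kb, 7 of 7 genes had a WT peak and 6 of 7 a KO peak, against 61.6% and 56.5% of all protein-coding genes. The gene that differed was Lin28a, which had 3 WT peaks and no KO peak within 1 kb of its TSS. A WT peak without a KO peak at this distance was found at 6.69% of protein-coding genes, and a KO peak without a WT peak at 1.52%, among them none of the 7. These shares include genes without any peak. Of the 13792 genes with a WT peak at this distance, 1498 had no KO peak. At least 3 WT peaks and no KO peak, as at Lin28a, occurred at 215 genes (0.961% of all protein-coding genes), a count chosen after the Lin28a peaks had been seen.

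A peak was called shared when a peak of the other library lay within a gap of 100 bp, and otherwise WT-only or KO-only. Over the 7 windows 31 of 90 WT peaks were WT-only (34.4%, exact binomial 95% interval 24.7% to 45.2%), close to the 32.1% of the whole WT list. Of the 65 KO peaks 8 were KO-only (12.3%, interval 5.47% to 22.8%), against 24.6% of the whole KO list. The peaks were then split by distance to TSSs. Within 2 kb of any protein-coding TSS, 1 of 33 KO peaks of the windows was KO-only (3.03%, 0.0767% to 15.8%), against 8.9% in the whole list. Farther from TSSs it was 7 of 32 (21.9%, 9.28% to 40%), against 37.5%. The same split of the WT peaks gave 14 of 48 near TSSs (29.2%, 17% to 44.1%), against 25.6%, and 17 of 42 farther away (40.5%, 25.6% to 56.7%), against 38.7%. Both KO shares were thus below those of the whole list, as was the share over all KO peaks of the windows, whose interval did not reach the list's value. This last share depended on the settings. It was 5.26% with 10 kb on either side and 5.41% among the lower 50% of name numbers. When at least 50% of both peaks had to be shared it was 32.3%, and the list's share under that rule is not given here. Among the KO peaks whose nearest protein-coding TSS was that of the gene itself the KO-only share was 7 of 48 (14.6%, 6.07% to 27.8%), an interval that includes the list's 24.6%. After the split the intervals are wider and include the list's values, in KO as in WT. Only the error of counting enters these intervals, and peaks that lie side by side are not separate observations.

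**Figure D1:**
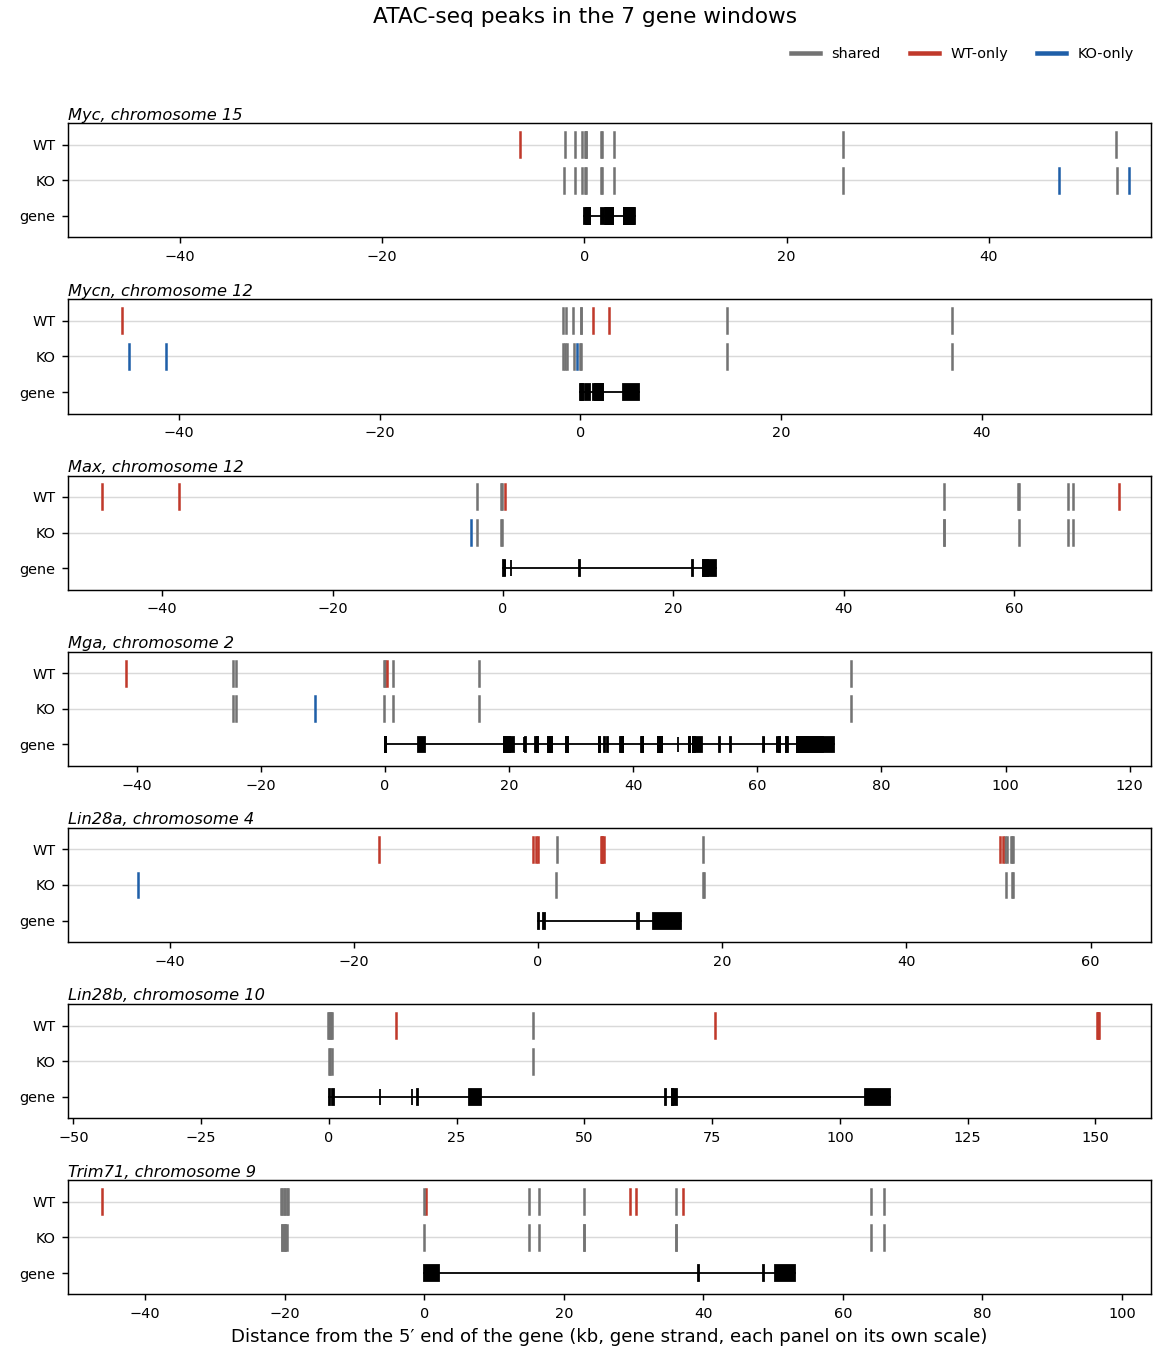
Peaks of the WT and KO libraries (ticks) along each gene with 50 kb on either side, against the distance in kb from the start of the gene on its own strand, with exons as black boxes; grey ticks are shared, red WT-only and blue KO-only peaks. WT-only peaks were most numerous at Lin28a (10 of 17) and, with those at the neighbour Bves, at Lin28b (6 of 12). Of the WT-only peaks nearest to a TSS of the gene itself, Lin28b had 2, and Mycn, Max and Trim71 had 3 each. The Lin28b and Trim71 windows held no KO-only peak.

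Within 2 kb of its TSSs, Myc had much the same peaks in both libraries. The window of the gene (chromosome 15, 61816946 to 61821929, plus strand) had 12 WT peaks and 12 KO peaks, each with an exact Poisson 95% interval of 6.2 to 21. Of these, 1 was WT-only and 2 were KO-only. Its promoter and first exons, with 5 annotated TSSs, carried most of them, 9 in WT and 8 in Uhrf1 KO within 2 kb of a TSS. The nearest lay 22 bp upstream of a TSS in WT and 16 bp upstream in Uhrf1 KO. All of the KO peaks within 2 kb and all of the WT ones were shared. The WT-only peak of the window (61810511 to 61810611) was intergenic, 6385 bp upstream. The KO-only peaks were intergenic as well, at 61863811 to 61863911 and 61870707 to 61870807, or 44884 and 51780 bp downstream of the nearest TSS. No other protein-coding gene lies in this window. At any distance, also beyond the window, 27 WT and 34 KO peaks were nearest to a Myc TSS. The 7 genes with 27 such WT peaks, Myc included, had a median of 19 KO peaks and none more than 34. At 22335 protein-coding genes (99.8%), Myc included, the KO number minus the WT number was no higher than at Myc. These counts were made after the values had been seen.

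Mycn (chromosome 12, 12942902 to 12948720, minus strand) is the family member best known from early embryos and neural progenitors. Its window had 10 WT peaks (4.8 to 18.4) and 11 KO peaks (5.49 to 19.7), with 7 within 2 kb of a TSS in each library. The nearest lay 33 bp downstream of a TSS in WT and 12 bp downstream in Uhrf1 KO. Here the promoter differed in detail between the libraries. WT-only peaks lay in introns at 12947430 to 12947530, 58 bp upstream of an internal TSS, and at 12945841 to 12945941, 1531 bp downstream of it. A KO-only peak at 12948961 to 12949061 lay 291 bp upstream of the first TSS and was the KO-only peak nearest to a TSS in all 7 windows. It had a WT peak 341 bp away, counted between the middles. Far upstream, a WT-only peak at 12994297 to 12994397 (45627 bp) and a KO-only peak at 12993674 to 12993774 (45004 bp) lay 623 bp apart, and another KO-only peak was at 12989933 to 12990033 (41263 bp).

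Max (chromosome 12, 78038256 to 78063235, minus strand), the common partner of the family, had 12 WT peaks (6.2 to 21) and 9 KO peaks (4.12 to 17.1). Introns of the neighbour Fntb, more than 50 kb from the Max TSSs, held 6 of the WT and 5 of the KO peaks. The peaks nearest to a Max TSS were 59 bp downstream in WT and 121 bp upstream in Uhrf1 KO. The first of these, at 78062903 to 78063003 in an intron, was WT-only, with the closest KO peak 403 bp away. Other WT-only peaks were at 77990931 to 77991031 in Fntb, and at 78101180 to 78101280 and 78110264 to 78110364, 37995 and 47079 bp upstream of Max. The KO-only peak at 78066965 to 78067065, 3780 bp upstream, had an E-box, CACGTG, in the 200 bp around its middle, a stretch that reaches beyond the listed peak on both sides. So did the shared promoter peaks 231 bp (WT) and 243 bp (Uhrf1 KO) upstream.

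Mga (chromosome 2, 119722964 to 119795317, plus strand) had 9 WT peaks (4.12 to 17.1) and 7 KO peaks (2.81 to 14.4). The nearest to a TSS were 3 bp upstream in WT and 73 bp upstream in Uhrf1 KO. A WT-only peak at 119723197 to 119723297 in an intron lay 206 bp downstream of a TSS, and another at 119681222 to 119681322 was intergenic, 41692 bp upstream. The KO-only peak at 119711681 to 119711781 was also intergenic, 11233 bp upstream. Both Max and Mga thus had a shared promoter peak and a WT-only peak just inside the gene, as did Trim71.

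By listed peaks, the Lin28 genes had the fewest KO peaks relative to WT of the 7. With neighbouring peaks merged, the numbers were 10 in WT and 5 in Uhrf1 KO at Lin28a, 6 and 4 at Lin28b and 15 and 10 at Trim71, so that Lin28b no longer stood below Trim71. Lin28a (chromosome 4, 133559245 to 133574756, minus strand) has 1 annotated transcript, and its window had 17 WT peaks (9.9 to 27.2) and 7 KO peaks (2.81 to 14.4). The Poisson intervals of both libraries overlap here, as they do at each of the other 6 genes. These intervals, too, hold only the error of counting and treat peaks side by side as separate, so that their overlap is no test of the genotypes. Of the WT peaks 10 were WT-only. The nearest to the TSS were at 133574705 to 133574805, 1 bp downstream of the TSS in the non-coding part of an exon, and at 133574899 to 133574999, 193 bp upstream. The KO peak nearest to the TSS was 1948 bp downstream, in an intron (133572758 to 133572858), and was shared with a WT peak 2019 bp downstream.

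A second group of WT-only peaks in Lin28a, picked out after its values had been seen, lay in the same intron farther in. It held 4 peaks between 133567563 and 133567987, from 6819 to 7143 bp downstream of the TSS, and the closest KO peak was 4871 bp or more away. All of the peaks of both groups had central 31 bp that occur at 1 place of the genome. The same held for all 90 WT peaks of the 7 windows and for 91.9% of the whole WT list. The KO-only peak of the window (133618133 to 133618233) was intergenic and nearer to the TSS of Aim1l than to that of Lin28a. Of the other protein-coding genes in the window, Hmgn2 and Dhdds had peaks at their TSSs in both libraries. Near the TSS of Hmgn2 there were 5 shared WT peaks and 3 KO peaks, all shared, and also 2 WT-only peaks, named after their values had been seen (133524164 to 133524264 and 133524517 to 133524617). Dhdds had 1 WT and 2 KO peaks, all shared. No peak was nearest to the TSS of Gm13060.

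**Figure D2:**
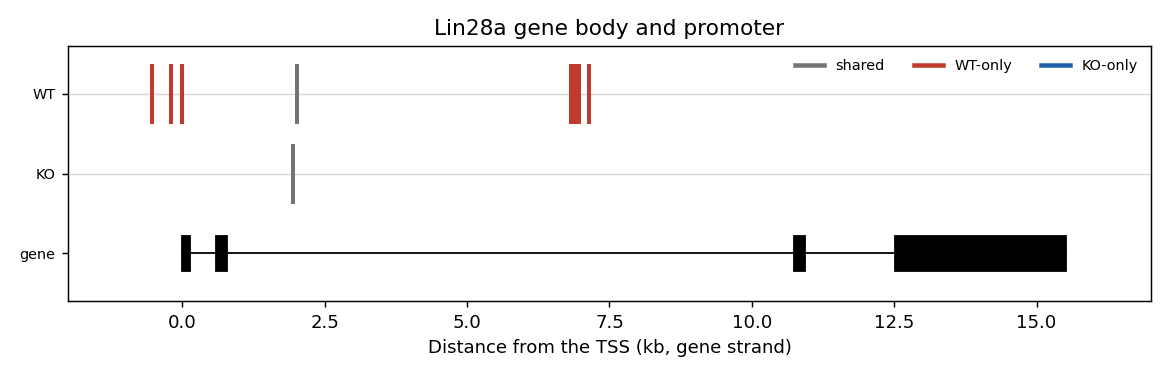
WT and KO peaks (ticks) at Lin28a against the distance in kb from its TSS on the gene strand, with exons as black boxes; grey ticks are shared and red ticks WT-only peaks. The 3 promoter peaks and the 4 intronic peaks of WT had no KO peak, and the shared peaks lay 2019 bp (WT) and 1948 bp (Uhrf1 KO) downstream.

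Peaks whose nearest protein-coding TSS was that of Lin28a, at any distance, numbered 9 in WT and 1 in Uhrf1 KO. There were 400 protein-coding genes with 9 such WT peaks, Lin28a included, and their median KO number was 7. At 2 of the 400 genes (0.5%) it was 1 or lower. Over whole windows, 358 genes had the 17 WT peaks of Lin28a, with a median of 13 KO peaks, and 19 of them (5.31%) had 7 KO peaks or fewer. A KO number lower than that of WT by 10 or more was found at 336 protein-coding genes (1.5%). These counts were made after the Lin28a values had been seen. The numbers in the peak names, which are not explained in the sources used here, placed the promoter peaks of Lin28a at 74.1% of the WT order on chromosome 4, counted from the lowest, or in band 8 of 10 equal bands. Peaks with high numbers lacked a partner more often, and among WT peaks of the same band within 1 kb of a protein-coding TSS 54.4% were WT-only. The intronic peaks were at 37.3%, 49.5%, 57.8% and 81.3%, in bands where 17.6%, 27.1%, 39% and 61% of WT peaks were WT-only. At Mycn, the WT-only peaks within 2 kb were in bands 4 and 7, where 17.6% and 46% of WT peaks were WT-only. The KO-only promoter peak of Mycn was in band 9 of the KO order. There 46% of KO peaks were KO-only, and 22.1% of those within 1 kb of a protein-coding TSS.

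**Figure D3:**
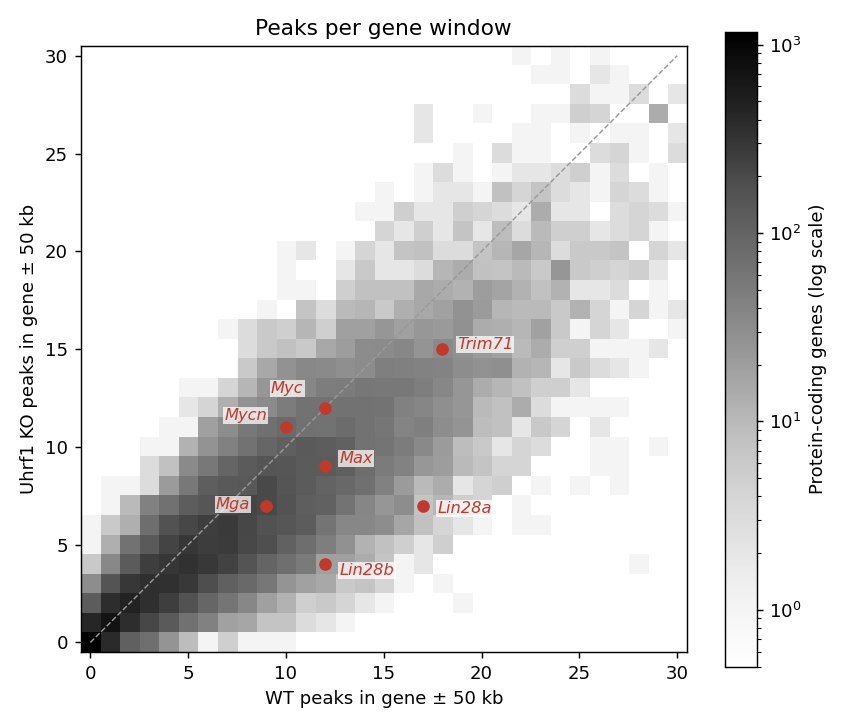
Number of KO peaks against number of WT peaks in each protein-coding gene with 50 kb on either side, shaded by the number of genes on a log scale, with the 7 genes as red points and a dashed line of equal numbers; 76 genes lie beyond the axes. Mycn lies above the line, Myc on it, and Lin28a (17 and 7) and Lin28b (12 and 4) lie farthest below it.

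Lin28b (chromosome 10, 45096426 to 45206201, minus strand), the paralog of Lin28a, had 12 WT peaks (6.2 to 21) and 4 KO peaks (1.09 to 10.2). In contrast to Lin28a, its promoter had peaks in both libraries, 5 in WT and 3 in Uhrf1 KO within 1 kb of a TSS, and all of these were shared. The nearest was 16 bp downstream of a TSS in WT and 13 bp downstream in Uhrf1 KO. Of its 6 WT-only peaks, 4 lay side by side from 45055528 to 45055886 at the TSS of the neighbour Bves, a gene known from muscle and heart, where no KO peak was listed. The other WT-only peaks were in introns of Lin28b, at 45130558 to 45130658 and at 45193046 to 45193146, 3089 bp upstream of an internal TSS. Without the peaks of Bves, Lin28b had 8 WT and 4 KO peaks. Of the 543 protein-coding genes with 8 WT peaks nearest to their own TSS, Lin28b included, 144 (26.5%) had 4 such KO peaks or fewer. Over the whole window, with the peaks at Bves, a KO number lower than the WT number by 8 or more was found at 881 protein-coding genes (3.94%). Of the 838 genes with 12 WT peaks in the window, 42 (5.01%) had 4 KO peaks or fewer. These counts, too, were made after the values had been seen.

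Trim71 (chromosome 9, 114420393 to 114473487, minus strand) had the most peaks of the 7 genes in both libraries, 18 in WT (10.7 to 28.4) and 15 in Uhrf1 KO (8.4 to 24.7). The nearest to its TSS were 87 bp upstream in WT and 97 bp upstream in Uhrf1 KO. All of the 15 KO peaks were shared, among them 6 that stood close together upstream, between 19636 and 20447 bp from the TSS. A WT-only peak at 114473229 to 114473329 lay 208 bp downstream of the TSS, in the non-coding part of an exon. By name number it was in band 9, like the WT-only peaks just inside Max and Mga. Among WT peaks of this band within 1 kb of a protein-coding TSS 58.8% were WT-only. The WT-only peaks at 114443987 to 114444087, 114443112 to 114443212 and 114436335 to 114436435 were in introns, 29450, 30325 and 37102 bp downstream. Another at 114519621 to 114519721 was in an intron of Cnot10, 46184 bp upstream.

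By distance, 33 WT and 24 KO peaks of the 7 genes lay within 2 kb of a TSS of the gene, 9 and 3 over 2 to 10 kb, 27 and 26 over 10 to 50 kb, and 21 and 12 farther away. Of the 6 WT-only peaks at over 2 to 10 kb, 4 were the intronic peaks of Lin28a. For 65 WT and 48 KO peaks no other protein-coding gene had a nearer TSS. By annotation, 39 WT and 37 KO peaks were intergenic, 35 and 18 lay in introns, 16 and 9 in UTRs or other non-coding exons, and 1 KO peak in a coding exon of Hmgn2.

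The promoters of the 7 genes differed in base composition. In the 1 kb around the start of the gene, the ratio of observed to expected CpG was highest at Lin28b (1.08, with 153 CpG) and lowest at Lin28a (0.373, with 33 CpG), whereas the other 5 lay between 0.673 (Mycn) and 0.876 (Mga). The median of all protein-coding genes was 0.549, and 61.9% of them had at least the value of Lin28a. The GC content at Lin28a, 60%, was above the median of 54.8%. Over the peaks of the 7 windows, the median GC content of the 200 bp around the middle of a peak, which takes in flanking sequence, was 58% in WT-only and 61.5% in shared WT peaks, near the 58% and 60.5% of the whole WT list. The 8 KO-only peaks had a median of 50%, against 49.5% in the whole list.

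The E-box CACGTG, whose reverse complement is the same, was searched because Myc and Max dimers bind it. It occurred in the 200 bp around the middle, in or next to the peak, for 7 of 90 WT peaks (7.78%, interval 3.18% to 15.4%) and for 8 of 65 KO peaks (12.3%, 5.47% to 22.8%), against 5.41% and 5.3% of the whole lists. All 7 of the WT peaks with an E-box in this stretch were shared, as were 2878 of the 3893 such peaks of the whole WT list. The 7 peaks lay in the windows of Max, Mga, Lin28a and Lin28b. Those in the Lin28a window were at the neighbour Hmgn2. Of the 8 KO peaks with an E-box 7 were shared as well. Stretches of neighbouring peaks can overlap, as those at Hmgn2 in WT did, so an E-box may be counted more than once. The intervals hold only the error of counting, and the peaks are not separate observations. The octamer ATGCAAAT, or its reverse complement ATTTGCAT, known as a binding sequence of Oct4, was found in the same stretch around 1 WT and 1 KO peak, both in an intron of Trim71, 15044 and 14973 bp downstream of its TSS. It was present around 1.58% of all WT and 1.94% of all KO peaks. These are matches of letters and do not show binding.

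For each gene the part of its peak nearest to a TSS that lies outside annotated exons is shown, so that the CpG content of the open promoters can be read, with CpG in capitals. Where the nearest peak had under 20 such bases, the next nearest was taken, which was the case for Myc. The peaks of Max and Lin28a were WT-only and those of the other 5 genes shared. All are on mm9 and written on the strand of the gene.
Myc chr15:61818557-61818588 plus strand: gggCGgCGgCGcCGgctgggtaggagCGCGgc
Mycn chr12:12948721-12948758 minus strand: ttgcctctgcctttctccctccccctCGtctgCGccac
Max chr12:78062903-78062976 minus strand: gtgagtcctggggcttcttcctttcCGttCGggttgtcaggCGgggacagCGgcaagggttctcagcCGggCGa
Mga chr2:119722911-119722963 plus strand: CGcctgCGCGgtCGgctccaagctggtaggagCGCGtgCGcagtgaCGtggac
Lin28a chr4:133574757-133574805 minus strand: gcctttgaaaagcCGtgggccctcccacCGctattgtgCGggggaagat
Lin28b chr10:45205584-45205620 minus strand: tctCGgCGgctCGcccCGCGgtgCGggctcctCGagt
Trim71 chr9:114473524-114473624 minus strand: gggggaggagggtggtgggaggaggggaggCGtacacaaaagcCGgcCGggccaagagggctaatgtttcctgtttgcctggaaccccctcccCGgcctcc
The stretches of Myc and Lin28b had 6 CpG in 32 bases and 7 in 37 bases. That of Mga had 8 in 53 bases and that of Max 6 in 74 bases. Those of Lin28a, Mycn and Trim71 had 3 in 49 bases, 2 in 38 bases and 4 over the whole peak.

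The KO-only peak nearest to a TSS, at Mycn, and the WT-only peak next nearest to the Lin28a TSS are shown in the same way, together with the nearest of the intronic WT-only peaks of Lin28a. Those of Lin28a were chosen after their values had been seen.
Mycn KO-only chr12:12948961-12949061 minus strand: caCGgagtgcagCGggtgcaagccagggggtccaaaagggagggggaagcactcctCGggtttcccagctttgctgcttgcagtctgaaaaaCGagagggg
Lin28a WT-only upstream chr4:133574899-133574999 minus strand: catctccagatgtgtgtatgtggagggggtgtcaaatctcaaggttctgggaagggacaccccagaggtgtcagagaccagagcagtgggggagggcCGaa
Lin28a WT-only intronic chr4:133567887-133567987 minus strand: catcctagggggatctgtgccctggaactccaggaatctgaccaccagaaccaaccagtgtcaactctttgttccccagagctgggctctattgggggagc
The Mycn peak held 4 CpG, and those of Lin28a 1 and 0, over the same length.

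Other genes of the same pathways were counted by a peak within 2 kb of a TSS. Of 23 further genes of the Myc network, 20 had such a peak in both libraries, among them Mycl, Mxd1 and Mxi1, and 3 in WT alone. Over all protein-coding genes, 57% had a peak in both libraries, 6.64% in WT alone, 1.73% in Uhrf1 KO alone and 34.6% in neither. All 23 network genes had a WT peak, and of the 14244 protein-coding genes with one, 1486 had no KO peak. The 3 network genes with a peak in WT alone were E2f6, Kat5 and Dmap1. E2f6 belongs to the same repressive complex as Mga, and Kat5 and Dmap1 are subunits of the Tip60 acetyltransferase complex that Myc recruits. Other listed members of these complexes, Pcgf6 and L3mbtl2 with Mga, and Ruvbl1, Ruvbl2, Trrap and Ep400 with Kat5, had a promoter peak in both libraries. The WT peaks of E2f6, Kat5 and Dmap1 lay 109, 19 and 44 bp upstream of a TSS, and the nearest KO peaks were 39648, 8219 and 23154 bp away. None of the 23 had a promoter peak in Uhrf1 KO alone. All of the 25 further genes of the Lin28 and let-7 pathway had a peak in both libraries, among them Zcchc11 and Zcchc6, which add uridines to let-7 precursors, and Dis3l2, which degrades them. Of the 9 annotated let-7 genes with Mir98, only Mirlet7i had a peak within 2 kb, in both libraries. The other 8 (Mirlet7a-1, Mirlet7b, Mirlet7c-1, Mirlet7c-2, Mirlet7d, Mirlet7f-2, Mirlet7g and Mir98) had none in either library, but their annotated start is that of the hairpin and not of the primary transcript.

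Markers were used to check the labelled cell type. Of 14 ESC markers 13 had a peak within 2 kb of a TSS in both libraries, among them Pou5f1, Sox2 and Nanog, against 57% of all protein-coding genes. Tcl1 had none in either library. Of 14 fibroblast markers, listed because the cells may be grown on a feeder layer, 6 had a peak in both libraries, among them Col1a1, Col1a2 and Thy1, against the same 57%, and Dcn had one in WT alone. The remaining 7, Col3a1, Col6a3, Twist2, Postn, Lum, Fap and S100a4, had none in either. Peaks do not measure expression, and the part of feeder cells in the differences at Lin28a was not tested.

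Genes most like each of the 7 in the numbers of shared, WT-only and KO-only peaks were looked up as a description. The same 4 numbers as at Lin28a (7 shared and 10 WT-only WT peaks, 6 shared and 1 KO-only KO peaks) were found at 1 other protein-coding gene, Gm6034 on chromosome 17. Lin28b was matched by Wiz, the closest in window length of 5 genes with its numbers. Myc was matched by Siglecg (of 3 genes), Mycn by Prph (of 2), Max by Trim69 (of 12) and Mga by Chst15 (of 15). No gene had the numbers of Trim71, and Zfp444, the closest in window length of 3 genes at the same distance, differed from it by 1 WT-only peak.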

How the data were processed

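The deposited lists of ATAC-seq peaks of 1 WT and 1 Uhrf1 KO library were used, each made from 50000 lysed cells. The submitters' processing notes name Bowtie2 2.1.0, HOMER 4.9.1 and the mm9 genome. The authors kept fragments below the size of a nucleosome. How peaks were called, and whether reads were shifted to the Tn5 cut, is not given in the sources used here. The deposited score is 1 in every peak and was not used.

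Peaks were placed by their middle on GENCODE vM1, which is on the mm9 assembly, with Python 3.11.15, numpy 2.4.6, pandas 2.3.3, scipy 1.17.1, numba 0.67.0 and matplotlib 3.10.9. Numbers carry exact Poisson and shares exact (Clopper-Pearson) binomial 95% intervals. Genomic copies of the central 31 bp were counted on both strands. The routine for shared peaks was tested on simulated data.

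The members and lists were chosen with earlier results of these data known. Named were all 7 genes, in each window the peak nearest to a TSS and the WT-only and KO-only peaks (the 3 nearest where there were more than 10; the position and sequence of 1 of them, at Lin28a, are not reported here), list genes without a peak in both libraries and up to 3 with one, and the most alike gene by Euclidean distance. Alternatives were other windows, overlap rules, merged peaks, other promoter distances and the lower 50% of name numbers, taken as the stricter peaks.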

Additional observations from a re-analysis of the deposited data

How the results depend on the processing

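With 10 kb in place of 50 kb on either side, the windows held 54 WT and 38 KO peaks, because less sequence was covered, and the KO-only share was 5.26%. When at least 50% of both peaks had to be shared, 53.3% of WT peaks were WT-only and 32.3% of KO peaks KO-only, as a stricter rule leaves fewer shared peaks. Among the lower 50% of name numbers the shares were 11.6% and 5.41%, and the cause was not tested. Shares were low there in the whole lists as well. In bands 1 to 5 of 10, the WT-only share of the whole WT list ran from 0.334% to 27.1%. The KO-only share of the whole KO list ran from 0.715% to 20%. The other 17 values, for total numbers, shares and genes with a promoter peak, lay within the limits set for them (1.5 times the number, or the 95% interval of the share). These include the shares without the Lin28a window, a setting chosen after seeing the data, at 28.8% WT-only and 12.1% KO-only.

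Genes with a promoter peak numbered 6 in WT and 5 in Uhrf1 KO among the lower 50% of name numbers, where Lin28a had none in either library and Mga none in Uhrf1 KO. The KO promoter peak of Lin28a is counted within 2 kb but not within 1 kb. Of 42 values for single windows 13 moved by more than 1.5 times, among them the KO number of Lin28a, from 7 to 1, when peaks nearer to another gene were left out, and the WT numbers of Lin28a, from 17 to 10, and Lin28b, from 12 to 6, when neighbouring peaks were merged. Merging made the differences between the libraries smaller at both genes. No paired analysis was possible because there was only 1 WT and 1 KO library. With no replicates, no read numbers and an unknown depth, a missing peak cannot be told from one just under the authors' threshold.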
